A study of Mus musculus with 6 samples.

Results

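The genes described here are 10 markers of macrophages in RNA from mouse tibial cartilage: the chains of complement C1q (C1qa, C1qb and C1qc), the surface and endosomal proteins Adgre1, Cd14 and Cd68, the lysosomal enzymes Lyz2, Ctss and Lgmn, and the pore-forming protein Mpeg1. Probes were assigned to them through the RefSeq accession that the array files give, which gave 11 probes for 9 of the 10 genes among 55681 probes in all. No probe was matched to Cd68, which is not analysed here. All 9 matched genes passed the filter on dim signal and stand among 25494 tested features.

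RNA came from 3 mutant mice and 3 control mice of the strain C57BL/6, with 1 Agilent 1-colour array per mouse. The mutants, labelled ADAM10 flox/flox-Col2a1-Cre, carried loxP-flanked alleles of Adam10, a membrane protease that sheds the outer parts of surface proteins, and a Cre recombinase under the Col2a1 promoter, which is active in chondrocytes. The labels call the other group control without giving its alleles, and they give neither age nor sex. Comparing the groups asks how cartilage RNA differs after Adam10 is targeted through this promoter, and it is read here for genes of cells that the promoter is not known to mark.

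Macrophages are phagocytes that reside in most tissues, and in long bones they lie in the marrow, at the front where vessels invade calcified cartilage, and in the synovial lining. C1q opens the classical complement pathway: chains A, B and C assemble into a molecule that binds immune complexes and dying cells, and tissue macrophages and dendritic cells make most of it. Lysozyme, cathepsin S and legumain act on ingested material, and the last also occurs in many other cell types. The transcription factor PU.1 binds a purine-rich core of the ETS type and controls many genes of the myeloid lineage.

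Promoters are shown for the C1q chains and enzymes that RefSeq's table (build GRCm38.p6) covers, because these genes read low together on 1 array, and for Lgmn because it varied little. The Mpeg1 window is not printed, although Mpeg1 also read low on that array. The table held promoters for 7 of the 10 genes, each a window of 300 bases from 250 before to 50 after a transcription start, in the direction of the gene. Capitals mark the ETS core AGGAAGT, or its complement ACTTCCT where it lies on the other strand, and in Ctss also the interferon-stimulated response element (GAAA, any 2 bases, GAAA).
C1qb, chr4:136886151-136886450, minus strand: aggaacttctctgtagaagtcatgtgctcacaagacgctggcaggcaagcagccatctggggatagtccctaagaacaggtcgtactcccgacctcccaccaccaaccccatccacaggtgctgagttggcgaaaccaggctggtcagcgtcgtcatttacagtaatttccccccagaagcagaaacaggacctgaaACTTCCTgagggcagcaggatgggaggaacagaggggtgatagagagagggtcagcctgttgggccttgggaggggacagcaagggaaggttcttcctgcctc
C1qc, chr4:136892865-136893164, minus strand: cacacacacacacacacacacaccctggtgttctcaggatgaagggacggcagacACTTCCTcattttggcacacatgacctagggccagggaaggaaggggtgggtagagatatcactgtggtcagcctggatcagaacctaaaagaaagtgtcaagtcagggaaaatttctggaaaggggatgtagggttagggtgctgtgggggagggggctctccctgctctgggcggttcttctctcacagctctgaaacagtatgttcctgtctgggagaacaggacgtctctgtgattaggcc
Lyz2, chr10:117282223-117282522, minus strand: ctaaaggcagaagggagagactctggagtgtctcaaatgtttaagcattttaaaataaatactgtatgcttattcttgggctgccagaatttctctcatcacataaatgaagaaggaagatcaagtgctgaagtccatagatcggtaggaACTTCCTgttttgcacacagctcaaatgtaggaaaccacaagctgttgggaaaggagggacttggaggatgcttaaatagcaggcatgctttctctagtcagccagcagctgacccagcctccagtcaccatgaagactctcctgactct
Ctss, chr3:95526536-95526835, plus strand: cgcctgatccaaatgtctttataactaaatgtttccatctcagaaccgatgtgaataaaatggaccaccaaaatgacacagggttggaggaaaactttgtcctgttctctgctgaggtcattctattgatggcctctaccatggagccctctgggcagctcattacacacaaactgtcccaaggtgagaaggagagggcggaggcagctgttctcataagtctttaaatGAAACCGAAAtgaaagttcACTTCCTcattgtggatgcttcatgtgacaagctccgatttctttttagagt
Lgmn, chr12:102439679-102439978, minus strand: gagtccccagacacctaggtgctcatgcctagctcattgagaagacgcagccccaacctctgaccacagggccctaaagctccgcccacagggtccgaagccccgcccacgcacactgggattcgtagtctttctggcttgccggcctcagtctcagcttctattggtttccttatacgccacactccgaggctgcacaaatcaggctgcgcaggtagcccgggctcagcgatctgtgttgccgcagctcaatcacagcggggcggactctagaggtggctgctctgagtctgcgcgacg
The ETS core occurred once in each of C1qb, C1qc, Lyz2 and Ctss, always on the strand opposite to the gene. It began 53 bases before the start in C1qb, 195 in C1qc, 100 in Lyz2 and 2 in Ctss, and it overlapped no other motif searched. Of 8 member windows (Lgmn has 2, and Cd68 and Mpeg1 have 1 each) 4 held it, against 9.35% of 32817 promoter windows of the same length. The ETS core was absent from the windows of Mpeg1, Cd68 and Lgmn, so not every gene that read low had it. The interferon element was in 1 of the 8 windows and in 3.43% of all, the AP-1 motif TGANTCA in 1 of 8 (Cd68, at 2 places) and in 7.81% of all, and TATAAA in 2 of 8 (Ctss and the other Lgmn window) and in 13.6% of all, with both strands searched. The motifs were chosen with the promoters in view, so these shares describe the windows and test nothing. A match is a string of letters and shows no binding. In the RefSeq annotation C1qb, C1qc and C1qa are neighbours on chromosome 4 with 0 genes between them.

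All values are log2 of the processed signal relative to the 75th percentile of its array, so a value of 0 is the brightness of a probe at that percentile and a step of 1 is 2-fold. Levels of different probes cannot be set against each other. All 6 arrays shared 1 slide and 1 scan. The share of spots well above background was 62.4% to 65.4%, with 0 saturated. Adam10, read by 1 probe that may lie outside the deleted part, was 0.15, -1.70 and 0.31 in mutants 1 to 3 and 1.61, 1.58 and 1.21 in controls 1 to 3, and the difference was -1.88 (SE 0.53), or -1.24 without mutant 2. All 12 chondrocyte markers listed, among them Col2a1, Acan and Sox9, passed the filter on dim signal. Precision is limited by the number of arrays.

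Mutant 2 stood apart for the macrophage genes. It had the lowest value of the 6 arrays for 9 of 9 genes, where 18.7% of all tested features had their lowest value on that array. The differences of the members below are therefore given with and without it. In bulk RNA of this kind, fewer macrophages and less of a transcript per macrophage cannot be told apart.

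Every one of the 9 genes had a mean below that of controls, where 40.0% of all tested features did, and their median difference (mutant minus control) was -1.08 against 0.04 over all features. Limma (two-sided, Benjamini-Hochberg adjustment over all 25494 features) called 0 of the 9 at an adjusted p under 0.05, as it called 0% of all features, and the adjusted p of each member was 0.987. At an unadjusted p under 0.05, 2 members (Lyz2 and Mpeg1) were lower, or 2 of 9, where 1.89% of all features were; 0 members were higher, where 1.55% of all features were. For 7 of the 9 the mean was at least 2-fold lower, against 1.71% of all features. The 3 mutants lay below the 3 controls for 4 members (Lyz2, Mpeg1, Ctss and C1qb), against 3.75% of all features.

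Without mutant 2 the median difference of the 9 genes was -0.32, against 0.01 over all features. All 9 remained below 0 (46.6% of all features), 1 was at least 2-fold lower (0.706% of all), and Lyz2 and Mpeg1 were again at an unadjusted p under 0.05 (1.84% of all features, lower). The groups did not overlap for the 4 genes named above, where 7.85% of all features were separated in that direction. The first row of the slide held the 3 controls and mutant 1, and on these arrays the median was -0.33 with 8 of 9 below 0. Its second row held mutants only, so it gives no comparison of its own. On the 2 mutant and 2 control arrays whose Y-linked signal exceeded that of Xist, the median was -1.38, with mutant 2 among them.

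**Figure D1:**
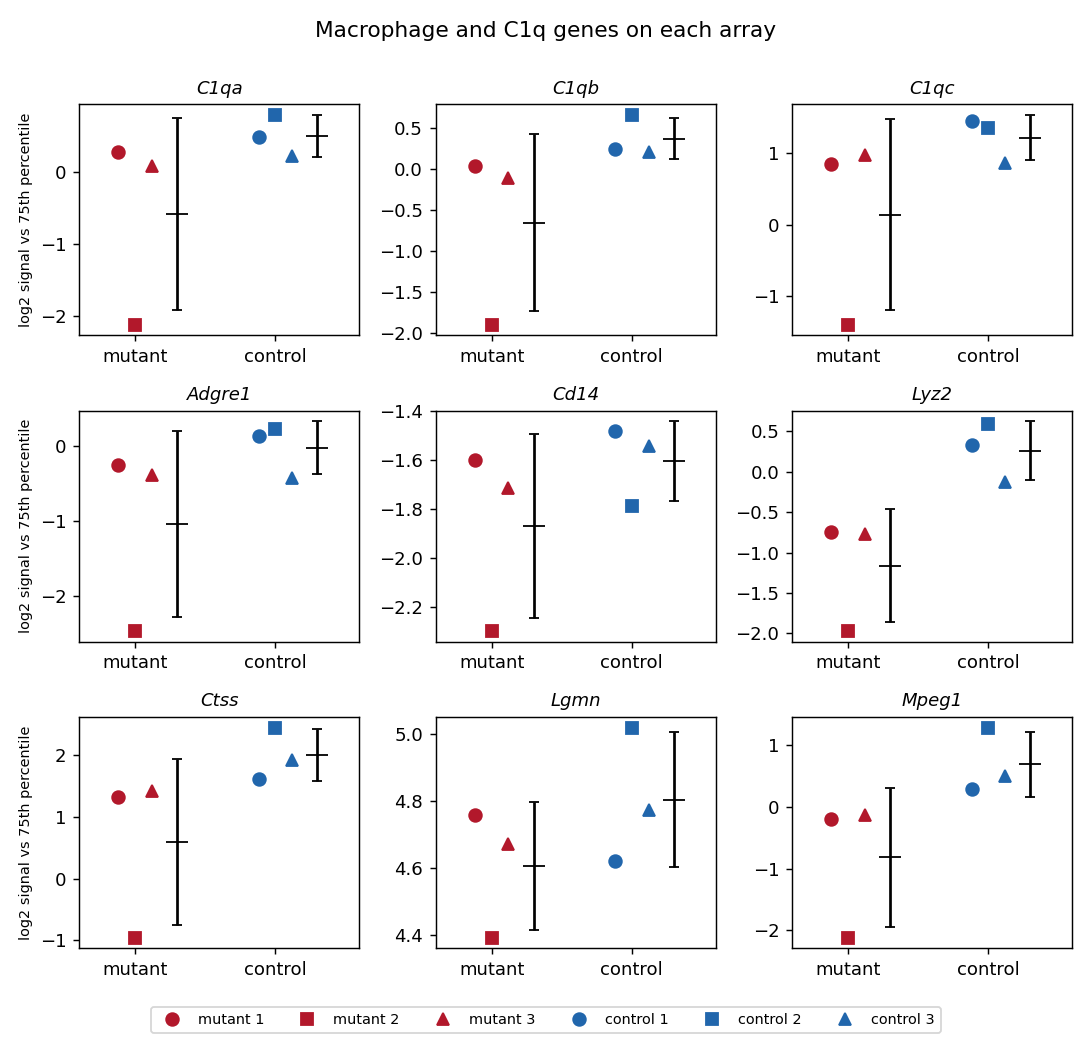
Log2 signal of 9 macrophage and C1q genes relative to the array's 75th percentile (y axis, with its own range in each panel) in 3 mutant and 3 control mice. Coloured symbols are single arrays and the black bars give mean ± SD; mutant 2 (square) is the lowest point in every panel.

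All 3 C1q chains were lowest on mutant 2. C1qa read 0.28, -2.12 and 0.09 in mutants 1 to 3, against 0.49, 0.80 and 0.22 in controls 1 to 3. Mutant 1 lay between controls 1 and 3, so the groups overlapped, and mutant 2 was far below all others. The mean was -0.58 ± 1.33 in mutants and 0.50 ± 0.29 in controls (SD, n = 3 each), which is -1.08 (SE 0.63, 95% interval -2.60 to 0.43) as a difference and 2.12-fold lower. Without mutant 2 it was -0.32 (95% interval -0.82 to 0.19).

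C1qb, the B chain, read 0.04, -1.90 and -0.11 in mutants, against 0.24, 0.66 and 0.22 in controls. Here the groups did not overlap, although mutants 1 and 3 lay close to the lowest controls. The difference was -1.03 (SE 0.52, 95% interval -2.27 to 0.21), and -0.41 (95% interval -0.86 to 0.05) without mutant 2. The exact permutation test gave a two-sided p of 0.1, the smallest that 3 arrays against 3 allow.

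C1qc, the C chain, was printed as 10 spots per array so the error of its spots can be given. It read 0.86, -1.40 and 0.98 in mutants, against 1.46, 1.35 and 0.86 in controls. Control 3 lay level with mutant 1 and below mutant 3. The SD among the spots of 1 array ran from 0.035 to 0.064, against an SD of 1.05 among the 6 array means, or 0.28 without mutant 2. The error of the spots leaves out that of RNA preparation, labelling and hybridisation. Its difference was -1.08 (SE 0.64, 95% interval -2.61 to 0.45), and -0.31 (95% interval -0.84 to 0.23) without mutant 2.

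**Figure D2:**
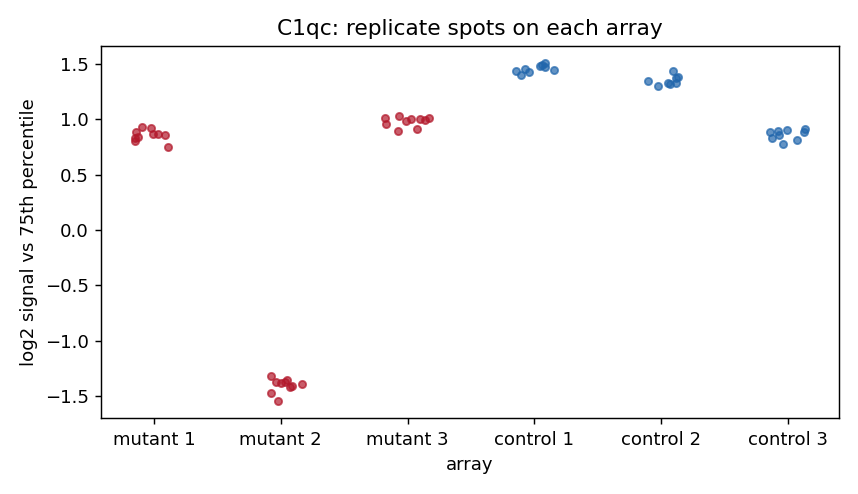
Log2 signal of the C1qc spots relative to the array's 75th percentile (y axis) on each array (x axis), with 8 to 10 spots per array after outlier spots were left out. Spots of 1 array cluster within an SD of at most 0.064, and those of mutant 2 lie near -1.40, below every spot of the other 5 arrays.

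The chains were also set against each other within each array. After centring on the 6 arrays, C1qa minus C1qb ranged from -0.32 (mutant 2) to 0.15 (control 1), with an SD of 0.18, and C1qa minus C1qc from -0.24 (control 1) to 0.17 (control 2), with an SD of 0.17. The corresponding SD of C1qb minus C1qc was 0.28. The chains themselves had SDs of 1.05 (C1qa), 0.90 (C1qb) and 1.05 (C1qc) over the 6 arrays. Without mutant 2 these SDs were 0.27, 0.29 and 0.28, and those of the within-array differences were 0.10 for C1qa minus C1qb, 0.19 for C1qa minus C1qc and 0.25 for C1qb minus C1qc, so over the other 5 arrays the spread of C1qb minus C1qc was close to that of either chain.

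Among surface proteins, Adgre1 encodes the adhesion receptor used to identify mouse macrophages. Its brighter probe read -0.25, -2.47 and -0.40 in mutants, against 0.13, 0.22 and -0.43 in controls. Control 3 was below mutants 1 and 3, so the groups overlapped. The difference was -1.01 (SE 0.60, 95% interval -2.45 to 0.42), and -0.30 (95% interval -0.87 to 0.28) without mutant 2. The dimmer probe read -1.54, -3.06 and -2.07 in mutants, against -1.32, -1.38 and -1.89 in controls, a difference of -0.69 (SE 0.39) when every probe was fitted on its own.

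Cd14, the coreceptor that hands bacterial lipopolysaccharide to Tlr4 and MD-2, behaved otherwise. It read -1.60, -2.30 and -1.71 in mutants, against -1.48, -1.79 and -1.54 in controls. Mutants 1 and 3 were both above control 2. The difference was -0.27 (SE 0.21, 95% interval -0.78 to 0.24), or 1.20-fold lower, and -0.05 (95% interval -0.41 to 0.31) without mutant 2.

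Lyz2, which encodes the lysozyme of macrophages and other myeloid cells, had the smallest p of the set. It read -0.75, -1.97 and -0.76 in mutants, against 0.33, 0.59 and -0.13 in controls. All 3 mutants lay below all 3 controls, and the gap between mutants 1 and 3 and the lowest control was wider than for any C1q chain. The mean was -1.16 ± 0.70 in mutants and 0.26 ± 0.36 in controls (SD, n = 3 each). The difference was -1.42 (SE 0.37, 95% interval -2.33 to -0.52), or 2.68-fold lower, with an unadjusted limma p of 0.00784 that ranked 111 among 25494 features and an adjusted p of 0.987. Without mutant 2 it was -1.02 (95% interval -1.60 to -0.44), or 2.03-fold lower, with an unadjusted limma p of 0.00588 and an adjusted p of 1.00. Lyz1, its near-identical neighbour gene, read 1.31 ± 0.86 in mutants and 2.63 ± 0.35 in controls (SD, n = 3 each), a difference of -1.32 (SE 0.44), or -0.83 without mutant 2. How far the probes of these paralogs also bind each other's RNA was not tested.

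Ctss encodes cathepsin S, the lysosomal protease that trims the invariant chain for antigen presentation. It read 1.32, -0.95 and 1.42 in mutants, against 1.61, 2.44 and 1.93 in controls. Every mutant was below every control, with mutant 3 just under control 1. The difference was -1.40 (SE 0.65, 95% interval -2.96 to 0.17), or 2.63-fold lower, and -0.62 (95% interval -1.28 to 0.03) without mutant 2.

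Lgmn, the asparagine-specific protease legumain, varied least. It read 4.76, 4.39 and 4.67 in mutants, against 4.62, 5.02 and 4.77 in controls, so that mutants 1 and 3 lay above control 1. The difference was -0.20 (SE 0.16, 95% interval -0.59 to 0.19), or 1.15-fold lower, and -0.09 (95% interval -0.48 to 0.31) without mutant 2. Even on mutant 2 it was only 0.32 below the mean of the other mutants, where C1qa was 2.30 below.

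Mpeg1 encodes perforin-2, a pore-forming protein of phagocyte vesicles. Its brighter probe read -0.20, -2.12 and -0.14 in mutants, against 0.29, 1.29 and 0.50 in controls. The groups did not overlap, and control 2 was the highest array. With a difference of -1.51 (SE 0.58, 95% interval -2.90 to -0.12) its mean in mutants was 2.85-fold lower, with an unadjusted limma p of 0.0371 and an adjusted p of 0.987. Without mutant 2 it was -0.86 (95% interval -1.65 to -0.07). The dimmer probe read -3.95, -6.01 and -3.88 in mutants, against -3.97, -3.29 and -3.55 in controls, and was not well above background on mutant 2. There control 1 lay below mutants 1 and 3, so this probe did not separate the groups, and its fitted difference was -1.01 (SE 0.58).

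**Figure D3:**
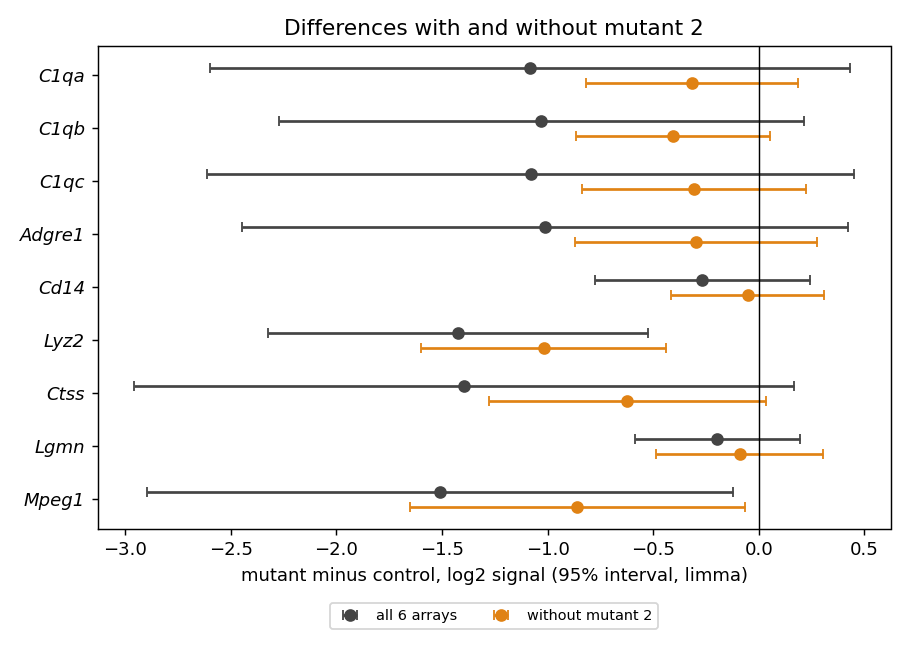
Mutant minus control difference in log2 signal (x axis) with its 95% interval from limma for each gene (y axis), with all 6 arrays and without mutant 2. All points lie below 0 in both fits, and the intervals of Lyz2 and Mpeg1 are the only ones that exclude 0 in both, before adjustment over all features.

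The members could thus be ordered by how far mutant 2 lay below mutants 1 and 3. Ctss, C1qc and C1qa were 2.33, 2.32 and 2.30 below the mean of those mutants, Adgre1 2.14, Mpeg1 1.95 and C1qb 1.87. Lyz2 was 1.22 below, Cd14 0.64 and Lgmn 0.32. Within-array differences between members were compared in 36 pairs with exact permutation tests (two-sided, smallest possible p 0.1). With all arrays the groups did not overlap in 8 pairs, and the smallest p adjusted over the 36 pairs was 0.45. Without mutant 2 they did not overlap in 15 pairs, for which no p is given. Groups separate more easily when there are fewer arrays, so the rise from 8 to 15 cannot be read as a clearer difference. The pairs also share genes and are not independent. The size of the mutant minus control difference was not shown to differ between Lyz2 and C1qa. Lyz2 minus C1qa differed by -0.34 with all arrays (permutation p 0.4, adjusted p 0.55), and by -0.70 without mutant 2.

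Genes around the members were described in lists. Of 22 other macrophage genes 21 were tested, with 19 below 0 and a median of -1.14. At an unadjusted limma p under 0.05, 5 were lower (1.89% of all features) and 0 higher (1.55% of all). The adjusted threshold was passed by 0, and 9 had separated groups (3.75% of all features). Mertk (0.10, SE 0.16) and Itgam (0.03, SE 0.18) lay above 0. Csf1r, the receptor for the growth factor CSF1, differed by -0.91 (SE 0.45), and Itgb2, the beta chain of the phagocyte integrins, by -1.02 (SE 0.37). Fcgr1, the high-affinity receptor for IgG, differed by -0.99 (SE 0.38). Spi1, which encodes PU.1, had a difference of -1.68 (SE 0.68) and was well above background on 2 of 3 mutants. Without mutant 2 the median of the list was -0.47, and the differences of these genes were -0.38 for Csf1r, -0.58 for Itgb2, -0.58 for Fcgr1 and -0.88 for Spi1.

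The other genes of the complement system scored 0.20, -0.92 and 0.22 in mutants 1 to 3 and 0.30, 0.15 and 0.05 in controls 1 to 3, as means of values centred on the 6 arrays, and were thus lowest on mutant 2. Of 18 listed, 16 were tested, 10 were below 0 and the median was -0.25, or -0.02 without mutant 2. None had an unadjusted p under 0.05. C1ra and C1s1, the proteases that C1q activates, differed by -0.01 (SE 0.17) and 0.20 (SE 0.20), and C4b, the next component, by 0.31 (SE 0.25). Without mutant 2 these were -0.06 for C1ra, 0.16 for C1s1 and 0.07 for C4b. C3ar1 and C5ar1, receptors for the anaphylatoxins on myeloid cells, differed by -1.04 (SE 0.49) and -1.15 (SE 0.65), each well above background on 2 of 3 mutants and with separated groups. Without mutant 2 C3ar1 stood at -0.44 and C5ar1 at -0.34.

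In the lipopolysaccharide receptor pathway that Cd14 serves, 13 of 14 genes were tested, 10 were below 0 and the median was -0.05, or -0.06 without mutant 2. Myd88, the adaptor below Tlr4, differed by -0.41 (SE 0.15, unadjusted limma p 0.0304, adjusted p 0.987), with all mutants below all controls. The signalling receptor Tlr4 differed by -0.21 (SE 0.15) and Ly96, which encodes MD-2, by -0.20 (SE 0.12). Without mutant 2 the differences were -0.31 for Myd88, -0.08 for Tlr4 and -0.19 for Ly96.

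Lysosomal genes beyond the members had a median of -0.05, or -0.10 without mutant 2, with 13 of 21 below 0 in both fits. The cathepsin Ctsc, which activates granule proteases of leukocytes, differed by -1.44 (SE 0.70) and, without mutant 2, by -0.58. Another cathepsin, Ctsf, differed by 0.44 (SE 0.17, unadjusted limma p 0.0353), or 0.31 without mutant 2, and did not pass adjustment over all features (adjusted p 0.987). Of the genes that feed macrophage growth, the ligand Csf1 differed by -0.28 (SE 0.19), or -0.13 without mutant 2, and the other ligand of the receptor, Il34, by 0.20 (SE 0.38), or 0.62 without mutant 2.

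Markers of other cells also differed between the arrays. To score a list, each gene's log2 signal was centred on the 6 arrays and the genes were averaged. Sums of relative signal are also given, but they are set mostly by the brightest probes of a list and do not compare its genes. The 9 members scored 0.08, -1.62 and 0.04 on mutants 1 to 3, against 0.44, 0.76 and 0.30 on controls 1 to 3. Osteoclast markers followed the same pattern, at -0.05, -1.40 and 0.05 in mutants against 0.28, 0.60 and 0.52 in controls, with 12 of 12 genes below 0 and a summed relative signal of 37.6 to 162 in mutants and 238 to 319 in controls. Among them Ctsk, the collagen-degrading cathepsin K, differed by -1.16 (SE 0.37) and Acp5, tartrate-resistant acid phosphatase, by -1.74 (SE 0.72). Without mutant 2 these were -0.72 for Ctsk and -0.85 for Acp5, and the median of the osteoclast list was -0.49, against -0.92 with all arrays. Endothelial markers scored 0.04, -1.14 and 0.11 in mutants against 0.42, 0.47 and 0.10 in controls, with 11 of 12 genes below 0 and sums of 29.9 to 67.9 in mutants and 56.7 to 73.2 in controls. Their median difference was -0.66, or -0.20 without mutant 2. Chondrocyte markers were highest on mutant 2 and scored 0.01, 0.39 and -0.0015 in mutants against -0.36, -0.06 and 0.03 in controls, with 1 of 12 genes below 0 and sums of 3057 to 3918 in mutants and 2787 to 3313 in controls.

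The neutrophil, B lymphocyte and erythroid lists scored highest on controls 1 and 2. Neutrophil markers scored -1.35, -0.74 and -0.26 in mutants against 1.99, 1.14 and -0.79 in controls, with 13 of 13 tested genes below 0 and sums of 21.7 to 37.9 in mutants and 30.3 to 179 in controls. B lymphocyte markers scored -0.96, -0.77 and -0.20 in mutants against 1.47, 1.43 and -0.96 in controls, with 9 of 9 tested genes below 0 and sums of 2.87 to 4.46 in mutants and 3.56 to 13.95 in controls. Pax5 and Rag1 did not pass the filter on dim signal. Erythroid markers scored -0.61, -0.64 and -0.03 in mutants against 1.65, 0.73 and -1.09 in controls, with 9 of 9 tested genes below 0 and sums of 60.5 to 111 in mutants and 67.2 to 325 in controls. Control 3 thus had low list scores for these cells, while its member score of 0.30 was close to that of control 1. Not every gene followed its list. The neutrophil marker Mmp8 was highest on control 3 (-0.15, against -1.79 and -2.76 on controls 1 and 2). Mmp9 read 3.90 on control 3, against 3.43 and 4.23 on controls 1 and 2. Monocyte markers, with their lowest score on mutant 2, scored -0.47, -0.85 and -0.05 in mutants against 0.87, 0.67 and -0.17 in controls, with 7 of 7 tested genes below 0 and sums of 217 to 269 in mutants and 225 to 246 in controls. These sums are set mainly by Fn1, by far the brightest gene of the list. It was highest on mutant 2 (8.02), so the sums do not follow the score. The median difference of the neutrophil list was -1.60, or -1.75 without mutant 2, and that of the B lymphocyte list -1.59, or -1.41. For the erythroid list it was -0.95, or -0.79, and for the monocyte list -1.18, or -0.52. The part of these cells in the differences of the members was not tested.

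**Figure D4:**
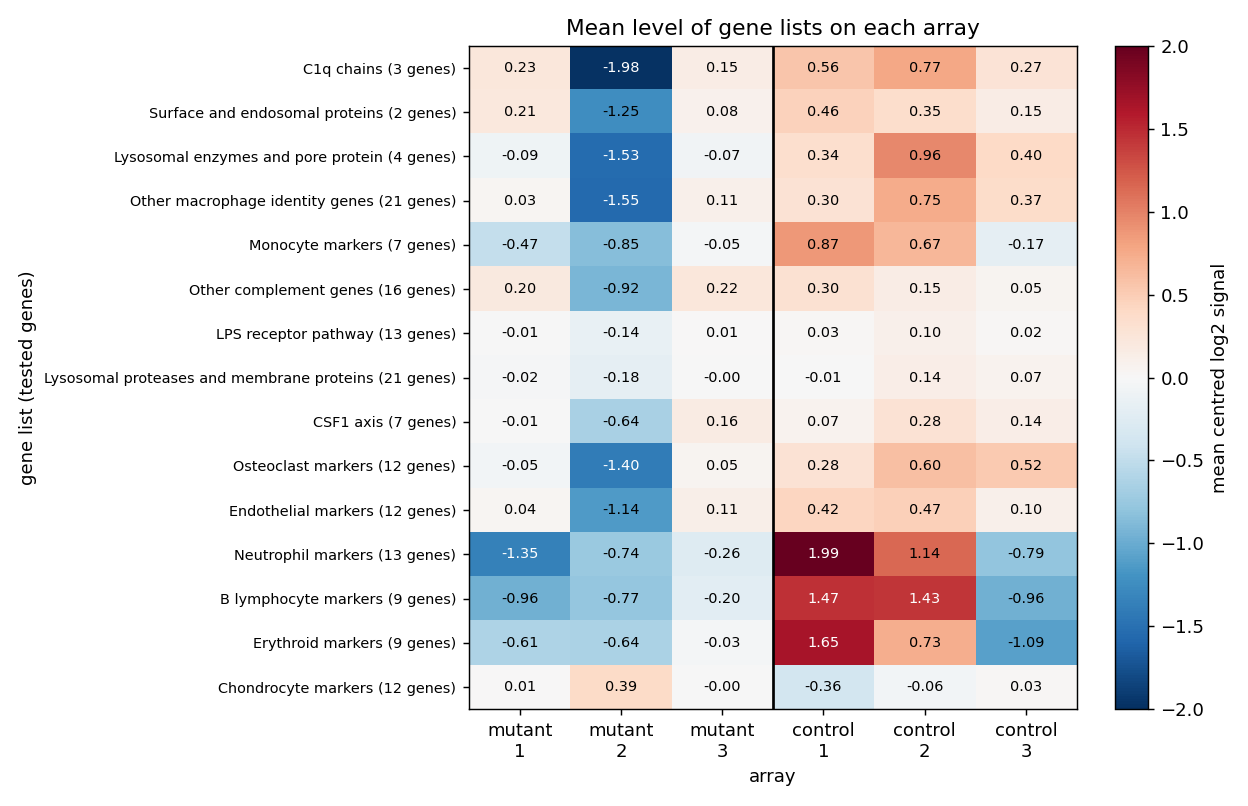
Mean centred log2 signal (colour and printed number) of each gene list (rows, with the number of tested genes) on each array (columns, mutants left of the line). Every list is lowest on mutant 2 except the neutrophil, B lymphocyte, erythroid and chondrocyte lists. The neutrophil, B lymphocyte and erythroid lists are highest on controls 1 and 2, and the chondrocyte list is highest on mutant 2.

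The genes most like the members were sought among 14631 other named genes that were well above background on all 6 arrays, by the root mean square distance of their centred values from the mean profile of the members. The closest were Cebpa (distance 0.076), a transcription factor of myeloid cells and adipocytes, Arhgap25 (0.079), a GTPase activator of leukocytes, Il2rg (0.082), the common gamma chain of cytokine receptors, and Cdh5 (0.084), the cadherin of endothelial junctions. Kcnn4, Bcl6b, Il10ra and Clec4a1 followed at 0.11 each. Among the members themselves C1qb was nearest to their mean profile (0.081) and Lgmn farthest (0.61).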

How the data were processed

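Total RNA (100 ng per mouse, 1 Agilent array each) was labelled with Cy3, per the labels' protocols. The deposited intensity values were made with Agilent's scanner software (Feature Extraction, version 10.7.1.1, as the submitters' processing notes name it): a processed signal that was background-subtracted within the array, and raw medians of spot and background, with no scaling across arrays. In the authors' deposited value table each entry is a ratio to each array's 75th percentile, as inferred from its values (75th percentile 1 in every column, medians 0.094 to 0.104, r = 1.00 with the processed signal), and its making is not given in the sources used here.

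Accessions were matched, without version, to RefSeq genes of GRCm38.p6 (27656 of 55681 probes). Outlier spots were left out (4 member spots over the 6 arrays). From the deposited intensity, the log2 processed signal minus the array's 75th percentile was averaged over spots of a probe. A probe was kept if well above background on at least 3 of 6 arrays, and each gene was read by its brightest probe. The comparison used limma (version 3.58.1, R 4.3.3) (residual 4 and prior 2.42 degrees of freedom). It was checked on simulated data with independent noise, which do not cover an array on which many genes read low together. The raw mean signal that a planned normexp alternative names is not used here; the median signal took its place.

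The members, lists and tests were chosen with earlier results of these data known, and the motifs with the promoters in view. Named were all members, up to 4 genes per list by smallest p and, after their values were seen, C1ra, C1s1, C4b, Il34, Itgam, Mertk and Fn1. Some genes that this rule names are not reported here. Alternatives were normexp correction (offset 50), other filters and probe rules, the deposited table, weights, a variance trend, a replicate block and subsets of arrays.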

Additional observations from a re-analysis of the deposited data

How the results depend on the processing

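No member passed an adjusted p of 0.05 under any of the 19 alternatives (smallest adjusted p 0.207, Lyz2), and 8 or 9 of 9 genes were below 0. Of 171 single-gene values 168 kept their sign. Cd14 turned to 0.056 with array weights, 0.0040 on the first slide row and 0.0081 without control 1 and mutant 2. The median difference (-1.08) was -0.33 on the first slide row and -0.32 without control 1 and mutant 2, and ran from -1.44 to -0.32 when single arrays were left out, the last value without mutant 2. It was -0.55 with array weights, and -0.89 and -0.87 with normexp and percentile or quantile scaling. Groups did not overlap for 4 to 7 members when single arrays were left out, with 7 without control 3, where 7.84% of all features were separated in that direction (5.42% to 10.4% over these fits). With the replicate number as a block the median was -1.08 and 0 members were called. Same-numbered mice did not deviate together (r = 0.21, 0.06 and -0.16), so the number was not taken as a pairing. Depth is unknown for arrays, where 1 member probe was not well above background on 1 array.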

Other observations

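Probes of the same macrophage receptor gene disagreed, as seen in values picked after they were known. Csf1r has 3 probes. The brightest read 4.08, 2.62 and 4.37 in mutants 1 to 3, against 4.48, 4.80 and 4.52 in controls 1 to 3, and another read -1.10, -3.24 and -1.15 in mutants, against -0.68, -0.36 and -0.54 in controls. Both were lowest on mutant 2. The remaining probe read 0.57, 0.79 and 0.71 in mutants, against 0.73, 0.88 and 0.99 in controls, so it showed no drop on mutant 2. When every probe was fitted on its own, the differences were -0.91 (SE 0.44), -1.30 (SE 0.57) and -0.18 (SE 0.13). Itgam, the alpha chain of complement receptor 3, also has 3 probes, with differences of 0.03 (SE 0.18), -0.12 (SE 0.14) and -0.10 (SE 0.19). The brightest Itgam probe read 6.57, 6.46 and 6.88 in mutants, against 6.37, 6.59 and 6.85 in controls, so mutant 2 lay within the controls. The second read -2.28, -2.54 and -2.13 in mutants, against -2.24, -2.19 and -2.17 in controls, and was lowest on mutant 2. The third read -4.21, -4.19 and -3.68 in mutants, against -4.03, -3.75 and -4.00 in controls, and was lowest on mutant 1. The partner chain Itgb2 read -1.46, -2.71 and -1.29 in mutants, against -0.88, -0.62 and -0.90 in controls.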
